A study of Mus musculus with 10 samples.

Results

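The G2 and mitosis genes are 48 genes of the engine, chromosomes, spindle, checkpoint and cleavage machinery of cell division, taken by symbol from a table of 29955 genes. They fall into 9 roles: the CDK1 engine (8 genes), condensin and chromosome structure (7), mitotic kinases and chromosomal passengers (7), the spindle checkpoint (5), the anaphase promoting complex and separase (4), the centromere (3), kinesins (7), cytokinesis (4) and other spindle microtubule proteins (3). Of the 48 genes, 47 passed the filter on low counts and were tested among 12282 genes. The exception was Cenpa, the centromeric histone H3 variant, which had 0 counts in all 10 libraries. Because levels are CPM, scaled counts without correction for gene length, they are compared between libraries and never between genes. The RefSeq spans of 12 tested members overlap that of another gene, among them Foxm1, Ncapg, Ncaph, Aurka, Cdc20, Kif4, Kif20a, Prc1, Anln and Nusap1. No source used here says whether counting used strand, so reads in the shared stretches may not be told apart. Whether the overlaps reach exons was not looked at.

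RNA sequencing had been done on a cultured mouse acute lymphoblastic leukaemia line with BCR-ABL1 in its p185 form, the fusion kinase that the ABL and SRC inhibitor dasatinib targets. There were 3 libraries of lines grown out at dasatinib IC90 16x (A, B and C), 3 of lines grown out at dasatinib IC90 1x (A, B and C), and 1 library each of lines carried in the vehicle DMSO to 16x and to 1x. The remaining 2 libraries were of the untreated parental line (A and B). The multiples are dose steps, and cells that had grown out at one step could be plated at the next. All groups share the BCR-ABL1 p185 line and its medium, and the drug-treated and DMSO lines were all derived from it. The sources used here do not give, for each library, whether cells were taken in the drug or after recovery without it. The 4 libraries without dasatinib (both DMSO lines and both parental libraries) are called drug-free below. The titles call the dasatinib libraries biological replicates and the parental ones only replicates, and the sources used here do not say from what stage the cultures were kept apart. Each p-value sets a change against the spread among these libraries, which for the parental pair may be technical. In the 3 main comparisons the 4 drug-free libraries form 1 class. The spread there thus also holds the differences between the DMSO and parental lines. This applies to dasatinib 16x against 1x too, since those comparisons share 1 fit.

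G2 and mitosis genes are transcribed in a wave late in the cell cycle, driven by B-MYB and FOXM1 on the MuvB complex and silenced in resting and G1 cells by the DREAM complex. Cyclin B with CDK1 starts mitosis, condensins and topoisomerase II compact and untangle chromosomes, kinesins and Aurora kinases build the spindle, and the checkpoint restrains the anaphase promoting complex until all chromosomes are attached. In leukaemia cells with BCR-ABL1 these genes mark the proliferating fraction. In bulk RNA, fewer cells in G2 and mitosis cannot be told apart from less of these RNAs per dividing cell.

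Library totals were 29049760 to 45813092 counts. Dasatinib 1x B stood apart in its histone RNA (192 CPM summed, against 58.5 to 73 CPM in the other 9 libraries), so counts of calls are also given without it. The 10 B-lineage markers, a check of the labelled cell type, summed to 3130 to 3142 CPM at dasatinib 16x, 3179 to 3313 CPM at 1x and 3376 to 3736 CPM in the drug-free libraries. Of these, Ebf1, a factor that defines the lineage, was nearly absent at 0.0954 to 0.717 CPM. Rag1 had 8.66, 3.72 and 2.98 CPM at 16x, 21.4, 16.6 and 17.6 CPM at 1x, 20.3 CPM in DMSO 16x, 56.7 CPM in DMSO 1x and 73.8 and 76 CPM in the parental line. T cell markers summed to 0.0633 CPM at most and stromal markers to 0.0681 CPM at most, with Cd4, Col3a1 and Dcn at 0 in all libraries. The 6 myeloid markers, with Elane at 0, summed to 3.63 to 8.24 CPM at 16x, 6.3 to 6.74 CPM at 1x and 3.91 to 5.96 CPM in the drug-free libraries. Of the erythroid markers, Hbb-b1, a beta globin gene, had 26.4, 24.6 and 16.1 CPM at 16x, 3.86, 4.25 and 3.5 CPM at 1x, 34.4 CPM in DMSO 16x, 11.2 CPM in DMSO 1x and 4.39 and 4.04 CPM in the parental line. Klf1 and Epor, an erythroid transcription factor and the erythropoietin receptor, lay at 0.49 CPM at most in any library. The part of the markers in the results below was not tested.

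Taken over the whole list, dasatinib 16x was the group in which G2 and mitosis genes stood lowest. The 47 tested members summed to 11537, 12041 and 11652 CPM in dasatinib 16x A, B and C. They summed to 12988, 12610 and 12896 CPM in dasatinib 1x A, B and C, to 12951 CPM in DMSO 16x, to 12796 CPM in DMSO 1x and to 12973 and 13103 CPM in the parental libraries. The 16x sums thus lay below all 7 others, and the 1x sums overlapped the drug-free ones. The gap is small, since the members took 1.15 to 1.21% of the counts at 16x and 1.25 to 1.33% elsewhere.

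**Figure D1:**
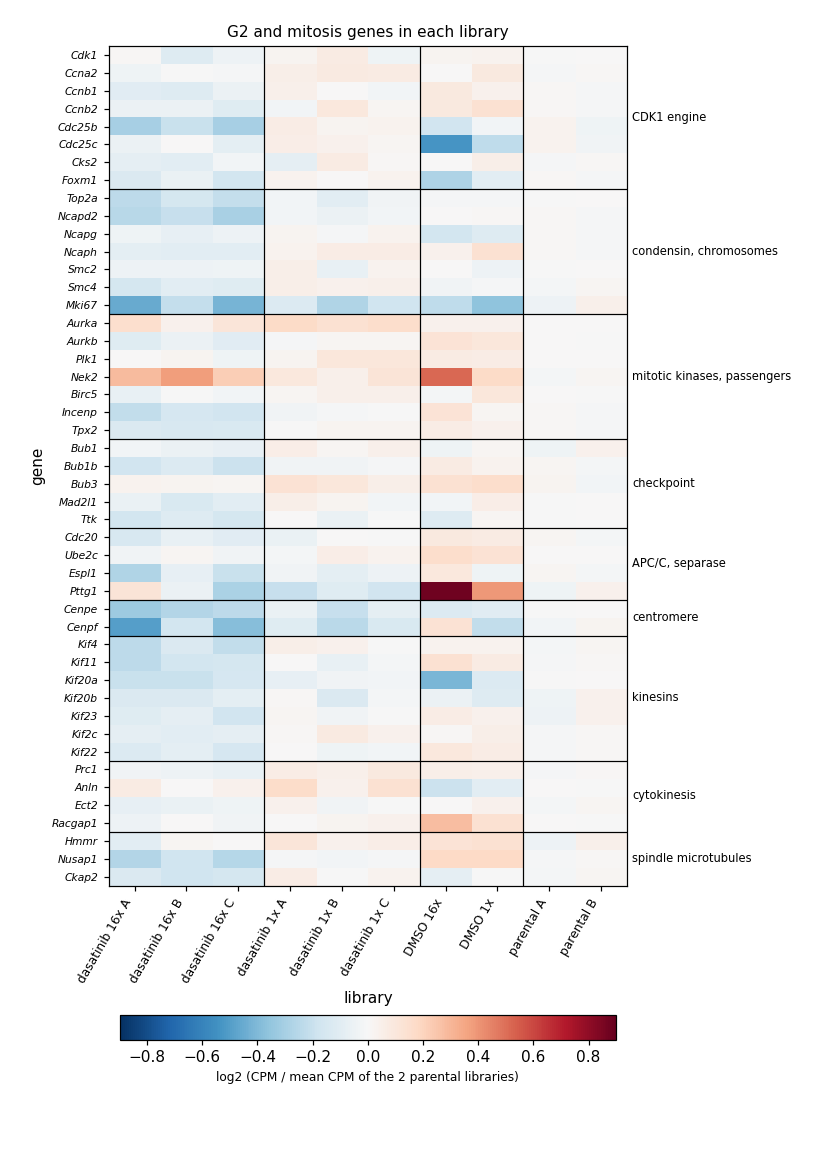
Level of each of the 47 tested genes (rows, by role) in each of the 10 libraries (columns), as log2 of its CPM over the mean CPM of the 2 parental libraries. Most rows are blue in the 3 dasatinib 16x columns, in which 36 to 42 genes lay below both parental libraries, and pale at dasatinib 1x, while Pttg1 and Nek2 are darkest red in DMSO 16x. The share of all tested genes below both parental libraries was not computed.

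The heat map of all tested genes by library shows the same for single genes. In dasatinib 16x A, B and C, 39, 36 and 42 of 47 genes lay below both parental libraries. That held for 16, 16 and 14 genes in dasatinib 1x A, B and C, for 15 in DMSO 16x and for 12 in DMSO 1x. The group mean was lowest at 16x for 36 genes, in DMSO 16x for 5, in the parental line for 3, in DMSO 1x for 2 and at dasatinib 1x for 1. For these counts and those against the parental libraries, the share over all tested genes was not computed. All 3 dasatinib 16x libraries lay below all 4 drug-free ones for 25 genes (of all tested genes, 14% did), below all 3 dasatinib 1x ones for 35 genes (15.5% of all) and below all 7 others for 23 genes (6.93% of all). Among the 16x libraries the highest value was in B for 25 genes, in A for 14 and in C for 8.

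Promoters of many members, though not all, hold the elements known from late cell cycle genes. Of 40 genes with a window, 9 have both elements within the last 100 bases before the start. Shown first are 7 of those 9, chosen because they hold both elements in a short stretch and include genes that fell at 16x and genes that did not pass there. Nusap1, which fell by 20.3% at 16x and has neither element, is shown last. The windows are the 100 bases before the transcription start in RefSeq on GRCm38.p6, written 5′ to 3′ on the gene's strand. Capitals mark the CHR element, which reads TTTGAA on one strand and thus reads TTCAAA on the other. They also mark the CCAAT box, whose letters on the opposite strand are ATTGG. The CHR element recruits MuvB complexes and the CCAAT box recruits NF-Y. Top2a, Kif11, Kif22, Espl1 and Cdc20 were called lower at dasatinib 16x as Nusap1 was, and Cdk1 and Ube2c were not called.
Top2a: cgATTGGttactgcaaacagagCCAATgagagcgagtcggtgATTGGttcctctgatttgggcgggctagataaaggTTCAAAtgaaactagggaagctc
Kif11: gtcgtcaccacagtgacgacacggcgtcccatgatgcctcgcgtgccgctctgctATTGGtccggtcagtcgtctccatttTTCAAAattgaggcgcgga
Kif22: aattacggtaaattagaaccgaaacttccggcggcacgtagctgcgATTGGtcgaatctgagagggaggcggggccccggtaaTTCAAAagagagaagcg
Espl1: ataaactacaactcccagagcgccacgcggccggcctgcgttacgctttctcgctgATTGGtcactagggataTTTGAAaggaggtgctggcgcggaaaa
Cdc20: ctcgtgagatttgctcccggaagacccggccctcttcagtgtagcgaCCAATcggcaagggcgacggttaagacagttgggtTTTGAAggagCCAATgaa
Cdk1: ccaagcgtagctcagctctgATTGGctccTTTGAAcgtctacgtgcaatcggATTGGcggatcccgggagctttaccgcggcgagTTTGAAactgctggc
Ube2c: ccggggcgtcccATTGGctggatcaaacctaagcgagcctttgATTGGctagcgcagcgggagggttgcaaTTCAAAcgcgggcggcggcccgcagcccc
Nusap1: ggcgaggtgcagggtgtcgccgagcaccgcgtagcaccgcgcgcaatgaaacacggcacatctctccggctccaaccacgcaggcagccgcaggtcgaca
These windows lie at chr11:99024190-99024289 on the minus strand for Top2a, chr19:37376282-37376381 on the plus strand for Kif11 and chr7:127042421-127042520 on the minus strand for Kif22. Those of Espl1 and Cdc20 lie at chr15:102296193-102296292 on the plus strand and chr4:118437344-118437443 on the minus strand. Cdk1 has its window at chr10:69352913-69353012 on the minus strand and Ube2c at chr2:164769829-164769928 on the plus strand. That of Nusap1 lies at chr2:119618198-119618297 on the plus strand. In each of the 7 chosen for holding both, a CHR element lies nearer the start than a CCAAT box does. Cdc20 has a further CCAAT box between its CHR element and the start.

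**Figure D2:**
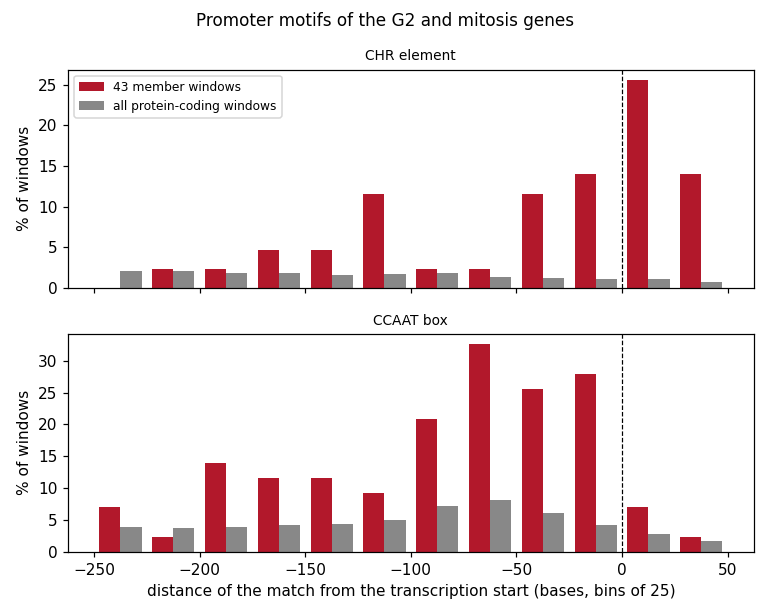
Share of promoter windows (y axis, percent) with a CHR element (upper panel) or a CCAAT box (lower panel) in each bin of 25 bases from 250 before to 50 after the transcription start (x axis, bases), for 43 windows of G2 and mitosis genes (red) and 21263 protein-coding windows (grey). The CHR share of member windows peaks at 25.6% in the first 25 bases after the start (1.03% of protein-coding windows), and the CCAAT share at 32.6% between 75 and 51 bases before it (8.12%).

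RefSeq windows from 250 bases before to 50 after the start were matched for 40 of the 48 genes, with 43 windows in all. Ccna2, Cdc25c, Foxm1, Smc4, Aurkb, Incenp, Tpx2 and Kif20a had no entry. The CHR letters stood on either strand in 74.4% of the 43 windows, against 16% of 21263 protein-coding windows. From 100 bases before to 50 after the start the shares were 65.1% of member windows and 6.75% of protein-coding ones. CCAAT stood in 81.4% against 38.2%, and both motifs in 67.4% against 6.38%, with no match of the pair overlapping in a member window. There was no CHR match in the windows of 11 of the 40 genes, and Birc5, Mad2l1, Ncaph, Nusap1 and Pttg1 had neither motif. The plot of motif positions shows where in the window these matches lie. The matches are a description of letters and not of binding, and several genes have their CHR letters just after the start, outside the stretch shown above. Within the list the CHR letters did not follow the calls: 12 of 17 genes that fell at 16x and have a window held them, and 16 of 22 that were not called.

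The first comparison set the 3 dasatinib 16x libraries against the 4 drug-free ones, and asked which G2 and mitosis genes differed at the highest dose step. By edgeR's quasi-likelihood test with Benjamini-Hochberg adjustment over all tested genes (called at an adjusted p under 0.05), 21 of 47 genes fell, 0 rose and 26 were not called. Of all tested genes, 8.33% were called lower and 7.79% higher. At an unadjusted p under 0.05 there were 26 lower and 1 higher, and DESeq2 called 25 lower and 0 higher. Of all 12282 tested genes, 1961 were lower and 1900 higher at that unadjusted p, and DESeq2 called 1409 lower and 1260 higher. The median log2 change was -0.12 over the 47 genes and -0.0037 over all tested genes, and 42 of 47 were below 0. Changes were small, from -0.43 to 0.13 on the log2 scale, so that the widest called falls were of 20.3%.

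**Figure D3:**
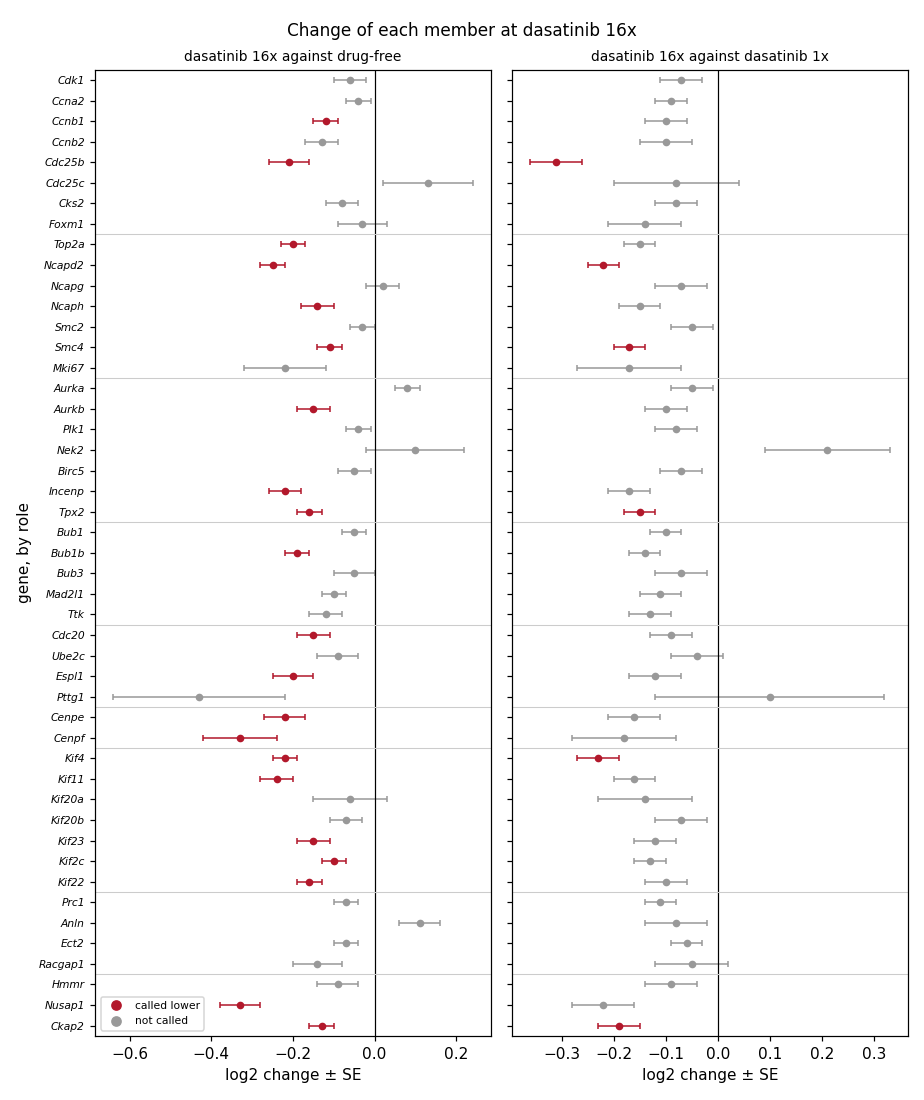
Log2 change of each of the 47 genes (y axis, by role) at dasatinib 16x against the 4 drug-free libraries (left) and against the 3 dasatinib 1x libraries (right), with its standard error as the bar. Red points passed the test (21 left, 6 right) and all lie left of 0, while grey points did not pass.

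Condensin and chromosome structure held 4 of the 21 falls among 7 genes. Ncapd2, a non-SMC subunit of condensin I, had 490, 506 and 476 CPM at dasatinib 16x, 573, 563 and 573 CPM at dasatinib 1x, 585 CPM in DMSO 16x, 588 CPM in DMSO 1x and 589 and 578 CPM in the parental line. All 16x libraries lay below the 7 others, which spanned only 563 to 589 CPM. Against drug-free Ncapd2 fell by 16.1% (log2 change -0.25 ± 0.03 SE, adjusted p = 0.000862, edgeR).

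Top2a, topoisomerase II alpha, which decatenates sister chromatids, had 1407, 1483 and 1432 CPM at 16x against 1648, 1643, 1657 and 1660 CPM in DMSO 16x, DMSO 1x and parental A and B. It fell by 12.8% (log2 change -0.2 ± 0.03, adjusted p = 0.00404, edgeR). Smc4, the condensin ATPase subunit, had 430, 450 and 446 CPM at 16x against 470 to 486 CPM in the drug-free libraries (log2 change -0.11 ± 0.03, adjusted p = 0.0286, edgeR). Its call was lost without any of 7 libraries (dasatinib 16x A or C, dasatinib 1x A or C, DMSO 1x, parental A or B), at an adjusted p of 0.0526 to 0.12. Ncaph, the kleisin of condensin I, also fell, a call lost in 8 of the 10 fits that leave out 1 library (all but those without DMSO 16x or parental B). Smc2 and Ncapg, further condensin subunits, were not called (log2 changes -0.03 and 0.02). Mki67, which coats mitotic chromosomes and is the gene of the Ki-67 proliferation marker, had 1275, 1503 and 1302 CPM at 16x, 1485 CPM in DMSO 16x, 1358 CPM in DMSO 1x and 1688 and 1797 CPM in the parental line. Its groups overlapped, both DMSO lines lay below the parental libraries, and it was not called (log2 change -0.22 ± 0.1, adjusted p = 0.162, edgeR). A further fit kept the 5 groups apart and had a smaller spread between libraries. In that fit, and against the parental libraries alone, Mki67 was called lower (log2 change -0.36 ± 0.08, adjusted p = 0.0105, edgeR).

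**Figure D4:**
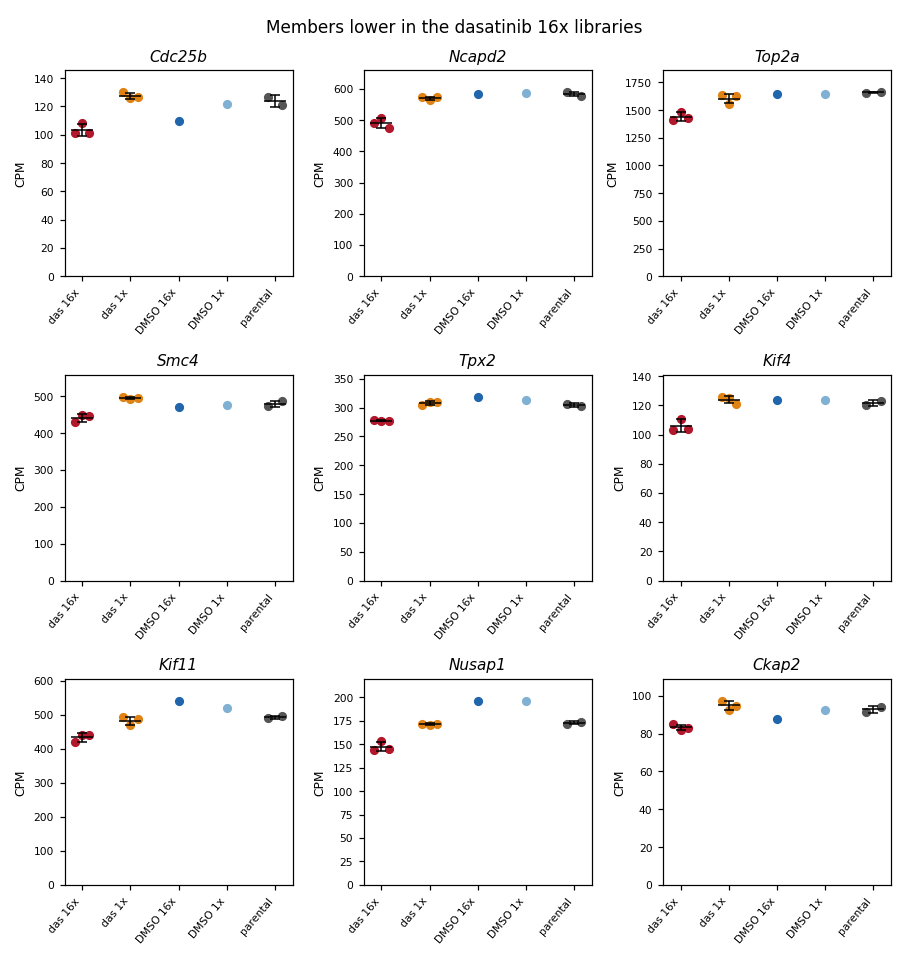
CPM (y axis) of 9 genes that were lower at dasatinib 16x, 1 point per library in each of the 5 groups (x axis), with the mean and SD as bars where a group has more than 1 library. In every panel the 3 dasatinib 16x points lie below the 7 others, such as 103 to 111 CPM against 120 to 126 CPM for Kif4.

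Kinesins held 5 of the falls among 7 genes. In the plot of 9 genes that were lower at dasatinib 16x, the points of Kif4 and Kif11 stand clear of the other groups. Kif11 (Eg5), which slides the spindle poles apart, had 419, 440 and 442 CPM at 16x, 493, 470 and 487 CPM at 1x, 541 CPM in DMSO 16x, 520 CPM in DMSO 1x and 490 and 496 CPM in the parental line. It fell by 15.3% against drug-free (log2 change -0.24 ± 0.04, adjusted p = 0.00543, edgeR). Kif4, a chromokinesin of chromosome arms and the spindle midzone, had 103, 111 and 104 CPM at 16x against 124, 124, 120 and 123 CPM in DMSO 16x, DMSO 1x and parental A and B. Its groups did not overlap, and it fell by 13.8% (log2 change -0.22 ± 0.03, adjusted p = 0.0043, edgeR). Kif22, a chromokinesin that pushes chromosomes to the metaphase plate, Kif23, the motor of the centralspindlin complex, and Kif2c, a microtubule depolymerase, also fell. Kif22 fell by 10.2%, Kif23 fell by 9.64% and Kif2c fell by 6.84%. The call of Kif22 was lost without dasatinib 16x A or C, and that of Kif23 without dasatinib 16x A, dasatinib 16x C, dasatinib 1x C, DMSO 1x or parental B. Kif2c kept its call only on leaving out DMSO 16x, among the 10 libraries. Kif20a and Kif20b, motors of the midzone, were not called (log2 changes -0.06 and -0.07). In the fit of 5 groups, against the parental libraries alone, Kif20a was called lower (log2 change -0.18 ± 0.03, adjusted p = 0.00187, edgeR). The tested centromere genes both fell. Cenpe, the motor that carries chromosomes to the spindle equator, had 232, 243 and 247 CPM at 16x against 268, 272, 291 and 292 CPM in DMSO 16x, DMSO 1x and parental A and B (log2 change -0.22 ± 0.05, adjusted p = 0.0149, edgeR). Its call was lost without dasatinib 16x A (adjusted p = 0.0654). Cenpf, a kinetochore protein, had 172, 216 and 186 CPM at 16x against 266, 208, 238 and 247 CPM in those drug-free libraries. It was the single called gene whose groups overlapped, in that dasatinib 16x B lay above DMSO 1x (log2 change -0.33 ± 0.09, adjusted p = 0.0426, edgeR). Its call was lost without any of 8 libraries (all but dasatinib 16x B and DMSO 1x), at an adjusted p of 0.0574 to 0.153.

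Of the CDK1 engine, 2 of 8 genes fell. Cdk1, the kinase that starts mitosis, had 229, 210 and 220 CPM at 16x against 231, 232, 227 and 228 CPM in DMSO 16x, DMSO 1x and parental A and B, and was not called (log2 change -0.06 ± 0.04, adjusted p = 0.307, edgeR). Its cyclin Ccnb1 had 291, 289 and 302 CPM at 16x against 333, 322, 315 and 311 CPM in the same libraries. Ccnb1 fell by 8.29% (log2 change -0.12 ± 0.03, adjusted p = 0.0365, edgeR), but its call was lost without any of 8 libraries (all but DMSO 16x and parental B), at an adjusted p of 0.0537 to 0.134. Cdc25b, the phosphatase that removes the first inhibitory phosphates from CDK1, had 101, 108 and 101 CPM at 16x against 110, 122, 127 and 121 CPM in the drug-free libraries. It fell by 13.6% (log2 change -0.21 ± 0.05, adjusted p = 0.0187, edgeR), a call lost without dasatinib 16x A or C (adjusted p of 0.071 to 0.0745). Ccna2, Ccnb2, Cks2, Cdc25c and Foxm1 were not called. Foxm1, the transcription factor of this gene wave, had 186, 196 and 182 CPM at 16x against 168, 191, 205 and 203 CPM in the drug-free libraries (log2 change -0.03 ± 0.06, adjusted p = 0.804, edgeR). The DMSO 16x line lay lowest for Foxm1. Against the parental libraries alone, in the fit of 5 groups, Foxm1 was called lower at dasatinib 16x (log2 change -0.12 ± 0.04, adjusted p = 0.0281, edgeR).

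Among mitotic kinases and passengers 3 of 7 genes fell. Incenp, the scaffold of the chromosomal passenger complex, had 250, 263 and 259 CPM at 16x against 318, 295, 294 and 290 CPM in DMSO 16x, DMSO 1x and parental A and B, without overlap. It fell by 14% (log2 change -0.22 ± 0.04, adjusted p = 0.00543, edgeR). Aurkb, the kinase of the same complex, fell by 9.58%, a call lost without any of 7 libraries (the 6 dasatinib ones and DMSO 1x), whereas Birc5, its survivin subunit, was not called (log2 change -0.05). Tpx2, which activates Aurora A on spindle microtubules, had 278, 276 and 277 CPM at 16x against 319, 313, 307 and 302 CPM in the drug-free libraries (log2 change -0.16 ± 0.03, adjusted p = 0.0056, edgeR). Aurka itself lay the other way, with 113, 105 and 110 CPM at 16x against 105, 105, 102 and 102 CPM, and was not called (log2 change 0.08 ± 0.03, adjusted p = 0.128, edgeR). Plk1, the kinase that drives mitotic entry and exit, had 219, 222 and 212 CPM against 230, 228, 218 and 218 CPM, with overlap (log2 change -0.04 ± 0.03, adjusted p = 0.509, edgeR). Nek2, a centrosome kinase, was not called against the drug-free libraries (log2 change 0.1 ± 0.12). Against the parental libraries alone, in the fit of 5 groups, Nek2 was called higher (log2 change 0.29 ± 0.06, adjusted p = 0.00253, edgeR).

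Of the spindle checkpoint 1 of 5 genes fell, which was Bub1b, the gene of the checkpoint protein BUBR1. It had 279, 289 and 275 CPM at 16x, 307, 307 and 312 CPM at 1x, 331 CPM in DMSO 16x, 322 CPM in DMSO 1x and 318 and 311 CPM in the parental line (log2 change against drug-free -0.19 ± 0.03, adjusted p = 0.00476, edgeR). Bub1, Bub3, Mad2l1 and Ttk, which help to form the signal at unattached kinetochores, lay at log2 changes of -0.12 to -0.05 without passing. Cdc20 and Espl1 fell among the 4 genes of the anaphase promoting complex and separase. Cdc20, the activator of the complex, had 177, 187 and 182 CPM at 16x against 208, 206, 198 and 193 CPM in the drug-free libraries (log2 change -0.15 ± 0.04, adjusted p = 0.0243, edgeR), lost without dasatinib 16x A, dasatinib 16x C or DMSO 1x (adjusted p of 0.0614 to 0.103). Espl1, the separase that cuts cohesin, had 165, 189 and 173 CPM at 16x against 213, 194, 201 and 197 CPM (log2 change -0.2 ± 0.05, adjusted p = 0.0276, edgeR). Its call was lost without dasatinib 16x A, dasatinib 16x C, dasatinib 1x C or parental A (adjusted p of 0.0514 to 0.114). Ube2c, the E2 enzyme of the complex, and Pttg1, the securin that holds separase inactive, were not called.

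Cytokinesis was the role with 0 of 4 genes called in the main fit. There were 2 lower at an unadjusted p under 0.05 and 1 called lower by DESeq2, namely Prc1. The fit of 5 groups called Racgap1 and Prc1 lower (log2 changes -0.17 ± 0.03 and -0.08 ± 0.03, adjusted p = 4e-04 and 0.029, edgeR). It called Anln higher (log2 change 0.14 ± 0.04, adjusted p = 0.00957, edgeR). Prc1, which bundles midzone microtubules, had 178, 176 and 174 CPM at 16x against 189, 188, 181 and 183 CPM in DMSO 16x, DMSO 1x and parental A and B (log2 change -0.07 ± 0.03, adjusted p = 0.114, edgeR). Its 16x libraries lay below all drug-free ones although it was not called. Among the spindle microtubule genes, Nusap1 and Ckap2 fell and Hmmr was not called. Nusap1, which bundles and anchors spindle microtubules, had 144, 153 and 145 CPM at 16x against 196, 196, 172 and 174 CPM in the drug-free libraries, a fall of 20.3% (log2 change -0.33 ± 0.05, adjusted p = 0.0045, edgeR). Ckap2, a microtubule stabiliser, had 84.8, 81.9 and 83 CPM at 16x against 87.7, 92.3, 91.5 and 94 CPM (log2 change -0.13 ± 0.03, adjusted p = 0.0276, edgeR), lost without any of 6 libraries (the dasatinib 16x ones, DMSO 1x and the parental ones; adjusted p of 0.0557 to 0.0876).

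The count of 21 depended on single libraries, and 8 calls stood whichever of the 10 was left out: Bub1b, Incenp, Kif11, Kif4, Ncapd2, Nusap1, Top2a and Tpx2. It was 8 or 9 when dasatinib 16x A or C was left out, 13 when either dasatinib 1x C or DMSO 1x was left out and 16 when dasatinib 1x B was left out, with 0 genes higher in each of these 5 fits. The fit of 5 groups, with the parental, DMSO 1x and DMSO 16x groups weighted equally as reference, called 31 members. All 21 calls were among them, and Anln and Cdc25c were higher (log2 changes 0.14 ± 0.04 and 0.21 ± 0.04, adjusted p = 0.00957 and 0.00153, edgeR). Against the parental libraries alone, in the fit of 5 groups, 22 members were called. These shared 17 of the 21 calls, and those of Aurkb, Ccnb1, Kif2c and Ncaph were lost. Fit and reference changed together there. The share of all tested genes called in these alternative fits is not given here, so their counts cannot be set beside it.

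The second comparison set dasatinib 16x against dasatinib 1x, and asked what differed between the steps under the drug. Here 6 of 47 genes fell and 0 rose, where 0.928% of all tested genes were called lower, 1.21% higher and 2.13% either way (edgeR's quasi-likelihood test). At an unadjusted p under 0.05 there were 24 lower and 0 higher, and DESeq2 called 14 lower. Of all 12282 tested genes, 932 were lower and 1010 higher at that unadjusted p, and DESeq2 called 384 lower and 421 higher. The median log2 change was -0.1 over the members and 0.002 over all genes, with 45 of 47 below 0. The genes were Cdc25b, Ncapd2, Smc4, Tpx2, Kif4 and Ckap2. This comparison and the previous one share the 3 dasatinib 16x libraries.

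Cdc25b was at 101, 108 and 101 CPM in dasatinib 16x A, B and C, against 130, 126 and 127 CPM in dasatinib 1x A, B and C (log2 change -0.31 ± 0.05, adjusted p = 0.0214, edgeR). Kif4, at 103, 111 and 104 CPM against 126, 125 and 121 CPM, fell by 14.5% (log2 change -0.23 ± 0.04, adjusted p = 0.0184, edgeR), and Ncapd2 fell by 13.9% (log2 change -0.22 ± 0.03, adjusted p = 0.0123, edgeR). In none of these genes did the steps overlap. Smc4 had 430, 450 and 446 CPM against 499, 493 and 495 CPM, and Tpx2 278, 276 and 277 CPM against 304, 310 and 310 CPM (log2 changes -0.17 ± 0.03 and -0.15 ± 0.03). Ckap2 had 84.8, 81.9 and 83 CPM against 97.2, 92.7 and 94.7 CPM (log2 change -0.19 ± 0.04, adjusted p = 0.034, edgeR). Top2a, at 1407, 1483 and 1432 CPM against 1632, 1554 and 1625 CPM, did not pass (log2 change -0.15 ± 0.03, adjusted p = 0.0504, edgeR). Nor did Nusap1 (adjusted p = 0.0925) or Bub1b (adjusted p = 0.0776), and Nek2 and Pttg1 were the 2 genes with a change above 0 (log2 changes 0.21 ± 0.12 and 0.1 ± 0.22). Each of the 6 calls was lost on leaving out at least 1 library, at an adjusted p of 0.0505 to 0.181. The count was 0 without dasatinib 16x C or without any one of the 3 dasatinib 1x libraries, 1 without dasatinib 16x A, 3 without DMSO 1x and 16 without DMSO 16x.

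The third comparison set dasatinib 1x against drug-free. Here 0 of 47 genes were called, against 1.96% of all tested genes (0.822% higher and 1.14% lower) by the same edgeR test. At an unadjusted p under 0.05 there were 2 higher (Aurka and Anln) and 1 lower (Pttg1), and DESeq2 called 2 higher, again Anln and Aurka. Of all 12282 tested genes, 1123 were higher and 1309 lower at that unadjusted p, and DESeq2 called 347 higher and 506 lower. The median log2 change of the members was -0.0033, with 24 of them below 0 and 23 above. Aurka had 115, 112 and 114 CPM at 1x against 105, 105, 102 and 102 CPM in DMSO 16x, DMSO 1x and parental A and B, without overlap (log2 change 0.13 ± 0.03, adjusted p = 0.0814, edgeR). Anln, the anillin of the cleavage furrow, had 247, 226 and 242 CPM at 1x against 192, 206, 221 and 219 CPM (log2 change 0.19 ± 0.05, adjusted p = 0.12, edgeR). Cdk1 (log2 change 0.01 ± 0.04), Ccnb1 (-0.03 ± 0.03), Plk1 (0.04 ± 0.03), Top2a (-0.04 ± 0.03) and Mki67 (-0.05 ± 0.1) lay close to 0. Leaving out any single library gave 0 calls as well. The fit of 5 groups, whose spread between libraries is smaller, called 12 members (7 higher and 5 lower). The share of all tested genes called in that fit is not given here, so the 12 cannot be set beside it.

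Against the single DMSO library of the same step, more genes passed in both directions. These tests use the fit of 5 groups and take the lone DMSO libraries to vary like the other groups. At 16x against DMSO 16x, 22 of 47 genes were lower and 5 higher, beside 16.8% and 18.9% of all tested genes. At 1x against DMSO 1x, 2 were lower (Pttg1 and Nusap1) and 3 higher (Cdc25c, Ncapg and Anln), beside 6.66% and 6.86% of all genes. The share called at 1x was thus near that of all genes, and the count of 5 fell to 3 without dasatinib 1x A or dasatinib 1x C, when Anln lost its call (adjusted p of 0.0611 to 0.0637).

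The 5 that were higher at 16x than in DMSO 16x were Cdc25c, Foxm1, Ncapg, Kif20a and Anln, and each of them lay lowest in DMSO 16x. Cdc25c, another CDK1-activating phosphatase, had 50.2, 52.1 and 49 CPM at dasatinib 16x, 54.2, 53.4 and 52.6 CPM at dasatinib 1x, 36.1 CPM in DMSO 16x, 44.4 CPM in DMSO 1x and 53.2 and 50.9 CPM in the parental line. Its log2 change was 0.48 ± 0.06 at 16x (adjusted p = 6.24e-05, edgeR) and 0.27 ± 0.06 at 1x (adjusted p = 0.0119, edgeR). Cdc25c lies on chromosome 18, where the median log2 change over 293 tested genes was 0.5 and 0.19 in these comparisons. Kif20a lies there too, and Ncapg on chromosome 5, with medians of 0.54 and 0.25 over 736 genes. Pttg1 went furthest the other way, with 15.3, 13.6 and 11.6 CPM at 16x against 25.9 CPM in DMSO 16x (log2 change -0.94 ± 0.12, adjusted p = 9.22e-05, edgeR). At 1x it had 12.2, 13.1 and 12.5 CPM against 18.5 CPM in DMSO 1x (log2 change -0.55 ± 0.13, adjusted p = 0.0141, edgeR). The parental libraries, at 13.7 and 14.5 CPM, lay among the dasatinib ones. Among the other genes lower at 16x, Nusap1 fell by 25% (log2 change -0.42 ± 0.04), Kif11 fell by 19.9% and Incenp fell by 19% against DMSO 16x.

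**Figure D5:**
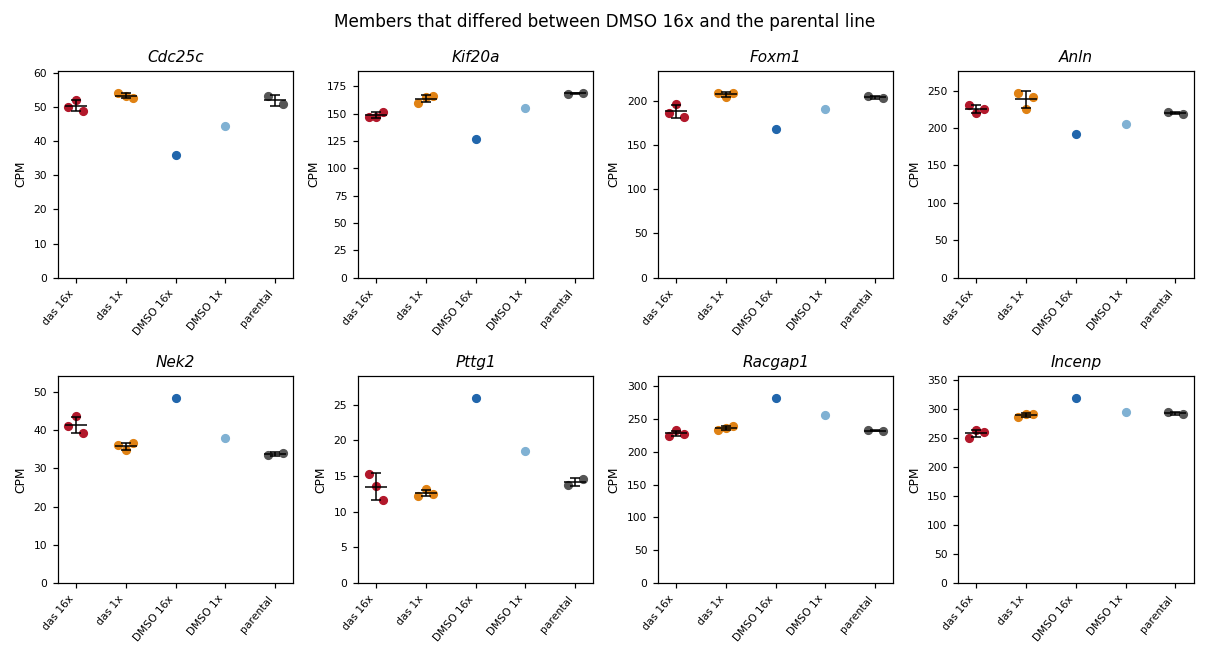
CPM (y axis) of 8 genes called between DMSO 16x and the parental line, 1 point per library in each of the 5 groups (x axis), with the mean and SD as bars where a group has more than 1 library. Cdc25c, Kif20a, Foxm1 and Anln are lowest in DMSO 16x, and Nek2, Pttg1, Racgap1 and Incenp are highest there.

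The DMSO lines were also set against the parental line. In DMSO 16x, 8 of 47 genes were higher and 6 lower than in the parental line, beside 14.7% and 16.2% of all tested genes, 30.9% together (edgeR's quasi-likelihood test), so the shares were near those of all genes. In DMSO 1x, 1 gene was higher (Nusap1) and 0 lower, beside 3.31% and 2.87% of all genes, 6.17% together. At an unadjusted p under 0.05 there were 11 higher and 4 lower, and DESeq2 called 1 higher (Nusap1) and 1 lower (Mki67). Of all 12282 tested genes, 1350 were higher and 1348 lower at that unadjusted p, and DESeq2 called 397 higher and 354 lower. Both DMSO 16x comparisons rest on the same single DMSO 16x library.

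As the plot of genes called between DMSO 16x and parental shows, Pttg1 and Nek2 had the largest rises. Pttg1 had 25.9 CPM in DMSO 16x and 18.5 CPM in DMSO 1x, against 13.7 and 14.5 CPM in the parental line (log2 change for DMSO 16x 0.88 ± 0.13, adjusted p = 0.000354, edgeR). Nek2 had 48.4 CPM in DMSO 16x and 38 CPM in DMSO 1x, against 33.4 and 34.1 CPM (log2 change for DMSO 16x 0.52 ± 0.07, adjusted p = 0.000182, edgeR). At dasatinib 16x Nek2 stood between, at 41.1, 43.7 and 39.3 CPM, above the parental libraries and below DMSO 16x. Racgap1, a partner of Kif23 in centralspindlin chosen here after its values were seen, had 282 CPM in DMSO 16x and 256 CPM in DMSO 1x against 233 and 232 CPM (log2 change for DMSO 16x 0.28 ± 0.04, adjusted p = 0.000246, edgeR).

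The 6 lower genes were Cdc25b, Cdc25c, Foxm1, Ncapg, Kif20a and Anln. Cdc25c fell by 30.6% (log2 change -0.53 ± 0.06, adjusted p = 5.93e-05, edgeR). Foxm1, at 168 CPM in DMSO 16x and 191 CPM in DMSO 1x against 205 and 203 CPM, fell by 17.7% in DMSO 16x (log2 change -0.28 ± 0.05, adjusted p = 0.000881, edgeR). Kif20a, also chosen after its values were seen, had 127 CPM in DMSO 16x and 155 CPM in DMSO 1x against 168 and 169 CPM (log2 change for DMSO 16x -0.41 ± 0.05, adjusted p = 2.63e-05, edgeR). Cdc25c and Kif20a lie on chromosome 18 and Ncapg on chromosome 5, and genes of these chromosomes stood lower as a whole in the DMSO lines. In DMSO 16x against parental the median log2 change was -0.51 over 293 tested genes of chromosome 18 and -0.47 over 736 of chromosome 5, against -0.01 over all genes. In DMSO 1x both medians were -0.17. Foxm1, on chromosome 6 (median 0.035), and Anln, on chromosome 9 (median 0.0093), fell in DMSO 16x without such a shift. Of the genes named, Anln, Cdc25b, Incenp and Kif11 lost their call in DMSO 16x without parental A or parental B, and Nusap1 without parental A (adjusted p of 0.0518 to 0.174). Cdc25b, Incenp and Kif11 lost it without dasatinib 1x A or C too. Without parental A the count in DMSO 16x was 6 and without parental B 8. For DMSO 1x it was 0 without parental A, parental B, dasatinib 1x A or dasatinib 1x C, but became 6, 5 and 2 on leaving out dasatinib 16x A, B and C in turn.

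Whether the change between steps differed under dasatinib and in DMSO was tested in the fit of 5 groups, a test added after seeing the data. It was called for 1 of 47 genes, beside 6.74% of all tested genes (5.37% with a difference above 0 and 1.37% below 0). The gene was Incenp, with log2 changes between the steps of -0.17 under dasatinib and 0.11 in DMSO and a difference of -0.27 ± 0.06 (adjusted p = 0.014, edgeR). Its step under dasatinib had not passed by itself (adjusted p = 0.0705, edgeR), and its step in DMSO, 1 library against 1, was not tested. Cdc25c had a log2 change between the steps of -0.08 ± 0.12 under dasatinib, which did not pass (adjusted p = 0.817, edgeR). Its change in DMSO was -0.3, again not tested. The difference between these steps did not pass either (0.22 ± 0.08, adjusted p = 0.17, edgeR). Nusap1 came close (-0.22 ± 0.06, adjusted p = 0.0544, edgeR). Leaving out dasatinib 16x A gave 4 calls, dasatinib 16x B 11 and dasatinib 1x B 2, and Incenp passed in each of these fits. For DMSO each step is a single library.

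A further list of G2 and mitosis genes outside the 48, written from general knowledge, had 64 tested members. At dasatinib 16x against drug-free 13 of them were lower and 1 higher (edgeR), beside 8.33% and 7.79% of all tested genes, with a median log2 change of -0.089 over the 64, against -0.12 over the 47 genes above. The lower ones included Cenph, an inner kinetochore gene (log2 change -0.38 ± 0.06, adjusted p = 0.00276, edgeR), Kif15, a spindle kinesin (-0.26 ± 0.04, adjusted p = 0.00306, edgeR), and Ncapg2, a condensin II subunit (-0.26 ± 0.04, adjusted p = 0.00428, edgeR). Cenpt, which anchors the outer kinetochore, was the one that rose (log2 change 0.21 ± 0.06, adjusted p = 0.0372, edgeR). Against dasatinib 1x, 1 of 64 was lower at 16x, near the 0.928% of all tested genes, namely Kif18b (log2 change -0.2 ± 0.04, adjusted p = 0.0498, edgeR). At dasatinib 1x against drug-free 0 of 64 were called, beside 1.96% of all tested genes. There were 8 higher and 3 lower at an unadjusted p under 0.05, and 1 higher and 1 lower by DESeq2. Over all 12282 tested genes the unadjusted counts were 1123 higher and 1309 lower, and those of DESeq2 347 and 506. In RefSeq windows of this list the CHR letters stood in 47.4%.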

How the data were processed

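The deposited table holds raw read counts per gene, made by the authors and merged over the 10 libraries. The submitters' processing notes name CASAVA 1.7.0, Trimmomatic 0.33, TopHat2 2.0.12, BWA 0.7.10, SAMtools, HTSeq 0.6.1, DESeq and the mouse build mm9, without saying how counting treated strand. Genes were filtered by expression (minimum count 10), scaled by TMM and tested with edgeR 4.0.16 in R 4.3.3 by its quasi-likelihood test with Benjamini-Hochberg adjustment over 12282 genes. Dasatinib 16x, dasatinib 1x and drug-free libraries were fitted as 3 classes (common biological coefficient of variation 15.3%, 7 residual degrees of freedom), and comparisons with single DMSO libraries in a fit of 5 groups (7.27%, 5 degrees of freedom). CPM use these scaled totals. DESeq2 1.42.0, RLE scaling, no filter and leaving out each library were alternatives. So were a replicate block on the lettered libraries, the fit of 5 groups, and that fit with the parental line alone as reference. Scripts were tested on simulated data. Members and lists were chosen with earlier results of these data known. By rule, 26 members were named (Cdk1, Ccnb1, Plk1, Aurka, Mki67, Top2a, Foxm1, the member with the smallest p in each role of each of the 3 main comparisons, and any called with a log2 change of 0.5 or more). Other members were named after their values were seen, to account for each role. Promoters came from RefSeq on GRCm38.p6 by symbol, since no mm9 genome was used. A marker withheld from the text is not reported here.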

Additional observations from a re-analysis of the deposited data

Results flagged for a closer look

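Incenp was the 1 of 47 members called for a change between dose steps that differed between the dasatinib and DMSO lines. Of all tested genes 6.74% were called, and 1.37% of all tested genes were called with a difference below 0. The difference for Incenp was -0.27 ± 0.06 on the log2 scale (adjusted p = 0.014, edgeR's quasi-likelihood test). It had 250, 263 and 259 CPM at dasatinib 16x against 285, 290 and 291 CPM at dasatinib 1x, and 318 CPM in DMSO 16x against 295 CPM in DMSO 1x. Each DMSO step is a single library. Leaving out any 1 of the 8 libraries that can be left out kept the call, at an adjusted p of 0.00365 to 0.042. Nusap1, Ncapd2, Kif11, Tpx2 and Racgap1 lay just short of the threshold, with differences of -0.22 to -0.18 (adjusted p of 0.0544 to 0.0669, edgeR).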

How the results depend on the processing

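The median log2 change of the members stayed within -0.125 to -0.089 at dasatinib 16x against drug-free, -0.113 to -0.102 against dasatinib 1x, and -0.012 to 0.021 at dasatinib 1x against drug-free. Over the single genes' alternatives, 1161 values kept direction and side of the threshold, 121 lost the call, 36 gained it and 8 turned round, all of them close to 0. Counts of called members moved by over 1.5 times as follows. At dasatinib 16x against 1x (6), DESeq2 gave 14, the fit of 5 groups 24 (23 lower and 1 higher, Nek2) and no filter 3. At dasatinib 1x against drug-free (0), DESeq2 gave 2, the fit of 5 groups 12, and that fit with the parental line alone as reference 1. Leaving out the genes of chromosomes 5 and 18, chosen after seeing the data, gave 1 there, 3 at dasatinib 1x against DMSO 1x (5), 8 in DMSO 16x against parental (14) and 0 in DMSO 1x against parental (1), where DESeq2 gave 2. The difference of steps (1) had 4 with DESeq2, 4 without the filter and 2 with RLE scaling. Leaving out 1 library gave 8 to 24 at dasatinib 16x against drug-free, 0 to 16 against 1x, 25 to 31 against DMSO 16x, 3 to 7 at dasatinib 1x against DMSO 1x, 0 to 0 at 1x against drug-free, 6 to 16 in DMSO 16x and 0 to 6 in DMSO 1x against parental, and 1 to 11 for the difference of steps. The share of all tested genes called is not given beside these alternative counts, and the cause was not tested.

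The sources used here do not say whether the letters pair the libraries. Deviations of same-letter dasatinib libraries correlated at 0.06, 0.03 and 0.05 over genes, and each was highest with its own letter. Such low values cannot decide it, and the main fits used no pairing. The fit with the replicate block used only the libraries lettered A, B or C, so its drug-free reference was the parental libraries alone. Against drug-free, block and reference thus changed together. That fit called 18 members at dasatinib 16x against 1x (17 lower and 1 higher) and 16 against drug-free (15 lower and 1 higher). The share of all tested genes it called is not given here. Of the 21 calls against drug-free, 12 were shared with that fit, and those of Aurkb, Ccnb1, Cdc20, Cenpf, Espl1, Kif22, Kif23, Kif2c and Ncaph were not. Values that turned round were Ccnb1 at 1x against drug-free, 0.006 with the parental line alone and 0.011 with the replicate block, Cdk1 there, -0.021 (without dasatinib 1x B) to 0.037 on leaving out single libraries, and Mki67 there, 0.007 in the fit of 5 groups and -0.12 to 0.014 (without parental B) on leaving out single libraries. For Foxm1, dasatinib 16x vs drug-free, the change was 0.006 in the fit of 5 groups and -0.088 to 0.004 (without parental A) on leaving out single libraries, and for Plk1 it was 0.005 with the replicate block.

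With 1 library for each DMSO step, its own spread is unknown.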
